A study of Homo sapiens with 24 samples.

Results

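The genes described here are 10 members of the YAP/TAZ-TEAD branch of transcription in colorectal cancer (CRC) cells, chosen by name from the 58051 gene identifiers counted in the libraries. They are the coactivators *YAP1* and *WWTR1* (which encodes TAZ), the DNA-binding partners *TEAD1* and *TEAD4*, the targets *CCN1*, *CCN2* and *ANKRD1*, and *AMOTL2*, *AJUBA* and *LATS2*, targets that act back on the pathway. All 10 matched 1 Ensembl identifier each. The members and the gene lists used below were chosen with earlier results of these data known. RNA was sequenced from clones of the human CRC lines HT29, HCT116 and SW480, in which both alleles of *CTNNB1* were either intact (WT) or inactivated by deletion of an exon with CRISPR/Cas9 (KO). Each line gave 2 WT and 2 KO clones, and a library of each clone was made in each of rounds A and B, which gave every line and genotype 4 libraries. HT29 was represented by clones WT 11, WT 40, KO 28 and KO 38, HCT116 by WT 4, WT 6, KO 44 and KO 47, and SW480 by WT 4, WT 5, KO 17 and KO 21. The clones were grown from single sorted cells. No further treatment is given in the labels, and HT29 and SW480 cells carry *APC* mutations, whereas HCT116 cells carry an activating *CTNNB1* mutation. *CTNNB1* encodes β-CATENIN, and the comparison of KO with WT asks what its loss did to the transcripts of each line. The libraries of a group came from 2 clones, and the main tests between genotypes and lines counted all 4 as independent samples. Their p-values pool the spread between rounds and clones and can be too small where clones differ. A property of a single clone weighs on its whole group. In such bulk RNA, fewer cells of a kind and less RNA per cell cannot be told apart.

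In the Hippo pathway, the kinases LATS1 and LATS2 phosphorylate YAP and TAZ, which are then held in the cytoplasm or degraded. When the kinases are inactive, YAP and TAZ enter the nucleus, bind TEAD proteins, which have no strong activation domain of their own, and switch on genes of the matrix, the cytoskeleton and cell growth. TAZ is also held by the β-CATENIN destruction complex, and YAP/TAZ activity is known from intestinal regeneration and from tumors with *APC* mutations. Since YAP and TAZ are mainly controlled at the level of the protein, transcript levels of *YAP1* and *WWTR1* do not show their activity.

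The libraries held 22297049 to 29068378 reads on genes. Values are normalized counts, which are reads divided by 1 size factor per library, and they are given as mean ± SD (n = 4). *CTNNB1* itself stood at 5883 to 50939 normalized counts in WT and at 187 to 1312 in KO libraries, and every KO library was below every WT library of its line. SW480 WT clones held 46967 ± 4376 normalized counts of *CTNNB1*, against 11918 ± 999.9 in HCT116 WT and 6021 ± 99.3 in HT29 WT. The epithelial keratins *KRT8* and *KRT18* were abundant in every library, whereas *CDH17*, *VIL1*, *CEACAM5* and *LGALS4* stayed at 10 reads or fewer in the WT libraries of HCT116, and *CDH17*, *KRT20*, *CEACAM5* and *LGALS4* did so in SW480, so that these 2 lines lacked several defining markers of differentiated colon epithelium. For *CDH17* this was shared by HT29, whose WT libraries held at most 3 reads. *CEACAM5* ran from 9.12 to 150 normalized counts in HT29 WT. The leukocyte marker *PTPRC* reached at most 4 reads and the endothelial marker *CDH5* at most 4 reads in any library. Not all markers of other cell types were this low. The leukocyte marker *CD14* reached 281 reads in HT29 WT, the endothelial marker *VWF* 244 in SW480 KO and the fibroblast marker *COL1A1* 460 in HCT116 WT. A gene was called where its adjusted p was under 0.05 (limma on log2 of the value plus 1, with Benjamini-Hochberg adjustment over all genes tested) and its absolute log2 fold change over 1. To be tested, a gene had to reach 10 normalized counts in 4 or more of the libraries compared.

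Loss of β-CATENIN went with a higher level of *WWTR1* in HCT116 and SW480, a higher level of *CCN1* in HCT116 and a lower level of *ANKRD1* in SW480. *YAP1* and *TEAD4* were below WT in every KO library of all 3 lines, but by less than the fold threshold. Their limma adjusted p was 0.20 and 0.26 in HT29, and that of *TEAD4* was 0.068 in HCT116. In HT29 no member was called. Of the members tested, 0 of 9 were called in HT29 by limma, edgeR and DESeq2 alike (3 had an unadjusted limma p under 0.05), where 2.30% of all genes tested were called by limma, 2 of 9 in HCT116 against 5.06% and 2 of 10 in SW480 against 17.5%. By direction, 1.90% of the genes tested in HT29 were called higher and 0.402% lower in KO, 3.17% and 1.89% in HCT116, and 10.7% and 6.76% in SW480. Over the members tested, the log2 fold change had a median of −0.40 for HT29, 0.15 for HCT116 and −0.26 for SW480, against 0.03, −0.01 and −0.0042 over all genes tested. All KO libraries lay on one side of all WT libraries for 2 of 9 members in HT29, 4 of 9 in HCT116 and 5 of 10 in SW480. Among all genes tested this held for 13.0%, 20.5% and 46.2%. The SW480 count was near that share, and 9 members are too few to set the other counts apart. The share of genes lower in every KO library of all 3 lines was not computed.

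*WWTR1* (ENSG00000018408, chromosome 3, 149235022 to 149454501 on the minus strand of GRCh37) was the coactivator whose transcript rose. In HCT116 the WT libraries held 1341 and 1313 (WT 4) and 1305 and 1168 (WT 6) normalized counts, and the KO libraries held 2499 and 2779 (KO 44) and 2879 and 3106 (KO 47). The log2 fold change was 1.13 (standard error 0.10, limma adjusted p = 3.6e-05). In SW480 the values were 2756 and 2888 (WT 4), 2668 and 2880.3 (WT 5), 10465 and 10648 (KO 17), and 10916 and 12039 (KO 21). This was a 3.93-fold rise (log2 fold change 1.98, standard error 0.07, adjusted p = 7.6e-09 in limma). In both lines the KO libraries were above all WT libraries and the clones of a genotype lay close together. The call held under each of the 21 alternatives in each line, with log2 fold changes from 1.04 to 1.22 in HCT116 and from 1.92 to 2.03 in SW480. In HT29 a change of *WWTR1* could not be resolved, as the WT clones were far apart. The effect there was not called different from that in HCT116 or SW480 by limma. There *WWTR1* was at 129 and 91.2 in WT 11 and at 9.88 and 6.26 in WT 40, while the KO libraries, at 30.2, 38.2, 61.7 and 57.0, fell between the 2 WT clones. Its log2 fold change in HT29 was 0.56 with a standard error of 0.91 and was not called (limma adjusted p = 0.79). Its exons share 756 bases with the antisense transcript *WWTR1-AS1*, or 9.05% of its exonic length, and the library kit does not mark strand, so reads from this stretch cannot be assigned to one of them.

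*YAP1* (ENSG00000137693, chromosome 11, 101981178 to 102104155 on the plus strand of GRCh37) went the other way from *WWTR1* in HCT116 and SW480. It was at 3528, 3965, 3355 and 3434 normalized counts in the WT and at 1965, 2107, 1611 and 2217 in the KO libraries of HCT116. In SW480 it was at 7698, 7602, 6857 and 7819 in WT and at 6191, 6329.6, 5325 and 5674 in KO. The HT29 libraries held 5705, 3836, 4584 and 3754 in WT and 3076, 3171, 3636 and 2366 in KO. No KO library reached a WT library of its line. The log2 fold change was −0.86 (standard error 0.12) in HCT116 with a limma adjusted p of 0.00069, −0.35 (standard error 0.08) in SW480 with 0.0031, and −0.54 (standard error 0.19) in HT29 with 0.20. All were under the fold threshold, and the KO means were 55.3%, 78.5% and 68.5% of the WT means. Of its exonic length, 9.95% overlaps an antisense transcript.

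Per kilobase of exon, *YAP1* was above *WWTR1* in every WT library. The ratio of *WWTR1* to *YAP1* per kilobase was 0.250 to 0.294 in the WT libraries of HCT116, and in its KO libraries it was 0.961 to 1.35. In SW480 it was 0.271 to 0.294 (WT) and 1.27 to 1.60 (KO). The 2 WT lines thus held a similar ratio, and in SW480 KO the order of the coactivators was turned in all 4 libraries. In HCT116 the ratio was 0.961 and 0.996 in KO 44 and 1.35 and 1.06 in KO 47. Whether the order was turned there depends on the lengths used, the unions of annotated exons (8353 bases for *WWTR1*, 6311 for *YAP1*). In normalized counts not divided by length, *WWTR1* was above *YAP1* in all 4 KO libraries of HCT116. In HT29 the ratio was 0.00126 to 0.0180 in WT and 0.00741 to 0.0182 in KO, so that nearly all transcript of the pair was *YAP1*. The sum of both per kilobase was 1522 ± 79.3 in SW480 WT and 2251 ± 79.7 in KO, 719 ± 47.0 and 650.1 ± 56.8 in HCT116, and 715 ± 148 and 491 ± 83.2 in HT29. It was above all WT libraries in every KO library of SW480 alone.

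**Figure D1:**
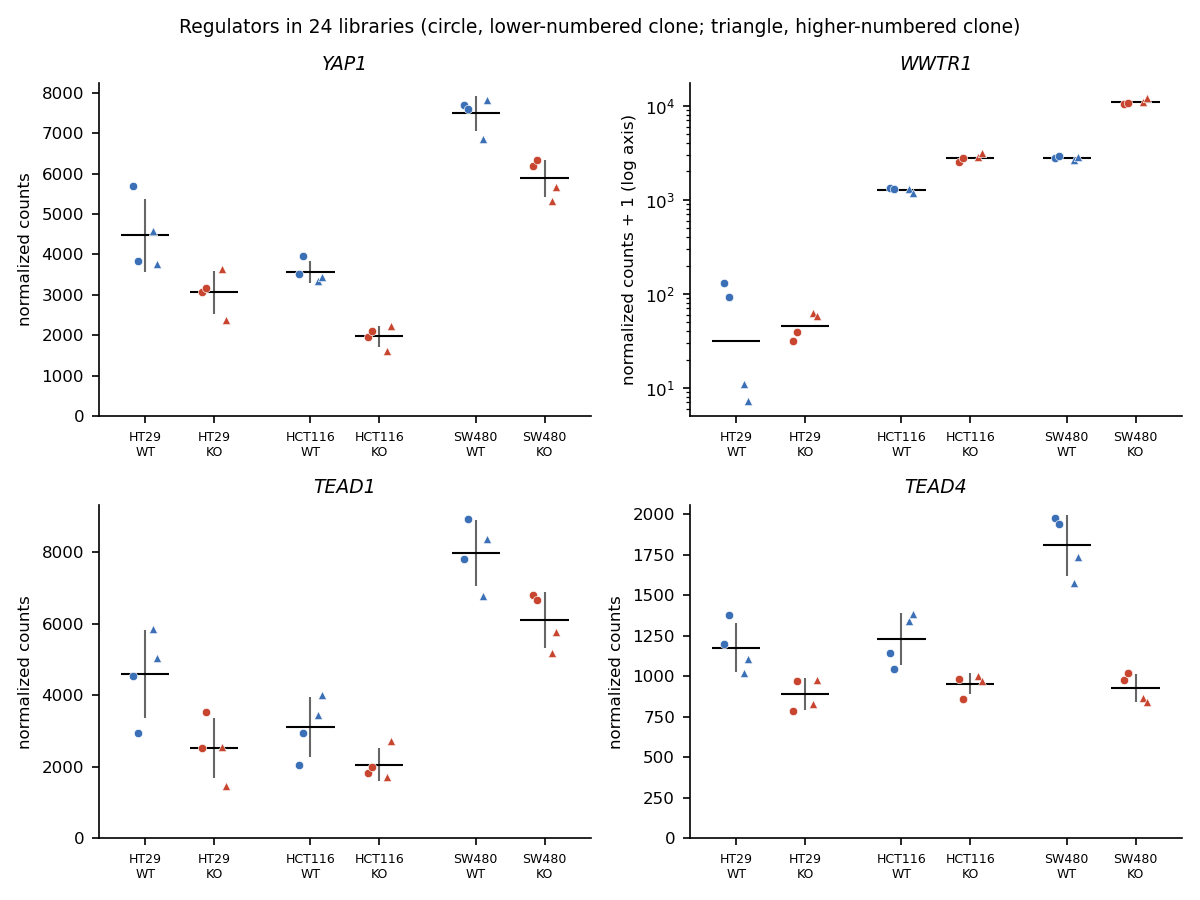
Normalized counts of *YAP1*, *WWTR1*, *TEAD1* and *TEAD4* in the 24 libraries, with WT in blue and KO in red. The *WWTR1* axis is logarithmic after adding 1. Circles are the lower-numbered and triangles the higher-numbered clone, black lines are means (of log values for *WWTR1*) and grey bars ± SD. *WWTR1* was higher in all KO libraries of HCT116 and SW480 and split by clone in HT29 WT, and *YAP1* and *TEAD4* were lower in all KO libraries of each line.

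The TEAD proteins give YAP and TAZ their DNA sequence. *TEAD4* (ENSG00000197905, chromosome 12, 3068496 to 3149842, plus strand) was at 1979, 1939.8, 1575 and 1739 normalized counts in SW480 WT and at 979, 1019, 867 and 844 in SW480 KO libraries. The KO mean was 51.3% of the WT mean, and the log2 fold change was −0.96 (standard error 0.10, limma adjusted p = 1.7e-05), just under the fold threshold. It passed the threshold, at −1.01 to −1.08, without library WT 5A or KO 17B or without clone WT 5 or KO 17. HT29 held 1198, 1377, 1023 and 1106 in WT and 787, 971, 832 and 976 in KO, and HCT116 held 1147, 1046, 1343 and 1387 in WT and 981, 861, 1005 and 969 in KO. The libraries of the genotypes did not overlap in these lines either, with log2 fold changes of −0.40 and −0.36 (limma adjusted p = 0.26 and 0.068). The *TEAD4* effect in SW480 was more negative than that in HT29 (difference −0.56, standard error 0.17, limma adjusted p = 0.027) and than that in HCT116 (difference −0.60, standard error 0.17, limma adjusted p = 0.021), both under the fold threshold. The *TEAD4* difference from HT29 had a limma adjusted p of 0.050 to 0.18 without a library of HT29 WT 40, SW480 WT 4 or SW480 KO 21 or without 1 of these clones, and that from HCT116 had 0.051 to 0.16 without HCT116 WT 4B, SW480 WT 4A, WT 4B or KO 21B or without clone WT 4 or KO 47 of HCT116 or WT 4 or KO 21 of SW480. With clones as samples the adjusted p was 0.32 for each, with clone as a random effect 0.13 and 0.12, and with no filter 0.10 and 0.083.

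*TEAD1* (ENSG00000187079, chromosome 11, 12695968 to 12966284, plus strand) was more variable. HT29 WT libraries held 4538, 2951, 5845 and 5042 and KO libraries 2525, 3533, 2540.2 and 1468 normalized counts. In HCT116 the values were 2048, 2957, 3450.3 and 4015 in WT and 1821, 1983, 1717 and 2725 in KO. In SW480 they were 7816, 8939, 6789 and 8376 in WT and 6804, 6666, 5168 and 5760.1 in KO. The KO mean was lower in each line but at least 1 KO library overlapped the WT range in each. In HCT116, where rounds paired the libraries, both KO clones were below both WT clones within each round, and with the round as a block the limma adjusted p of *TEAD1* was 0.0503. The log2 fold changes were −0.89, −0.58 and −0.39 in HT29, HCT116 and SW480 (standard errors 0.30, 0.21 and 0.11), with limma adjusted p of 0.18, 0.086 and 0.014. Among the other TEADs and the VGLL cofactors, which compete with YAP and TAZ for TEADs, 0 of 5 tested were called by limma in HT29 (1 at an unadjusted p under 0.05), 0 of 3 in HCT116 (0 at that p) and 1 of 4 in SW480. Of all genes tested, 2.30%, 5.06% and 17.5% were called in these lines, so that 1 call among 4 cannot be told from the share of all genes. List medians of the log2 fold change were −0.25, 0.15 and −0.13. The one called was *VGLL2*, which was at 0 in all SW480 WT libraries and at 21.1 to 48.0 in KO libraries.

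Promoter sequences from RefSeq (GRCh38.p14) were matched for 7 of the 10 members, as the 250 bases before a transcription start. Among them *CCN2* and *ANKRD1* are shown, because these 2 targets had the widest range of WT levels between lines. Capitals mark GGAATG, the core that TEAD proteins bind, searched on both strands (CATTCC on the other).
CCN2, chr6:131951373-131951622, minus strand: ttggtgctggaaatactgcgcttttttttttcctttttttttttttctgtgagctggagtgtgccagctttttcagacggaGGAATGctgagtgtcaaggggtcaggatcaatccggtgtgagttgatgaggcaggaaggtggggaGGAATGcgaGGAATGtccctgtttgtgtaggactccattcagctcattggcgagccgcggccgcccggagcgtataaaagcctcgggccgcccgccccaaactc
ANKRD1, chr10:90921088-90921337, minus strand: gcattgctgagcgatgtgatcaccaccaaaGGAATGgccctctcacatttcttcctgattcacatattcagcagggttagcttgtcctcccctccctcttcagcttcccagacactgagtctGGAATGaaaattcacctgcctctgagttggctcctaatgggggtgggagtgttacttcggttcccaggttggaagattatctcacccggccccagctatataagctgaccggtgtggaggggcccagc

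The core starts 169, 104 and 95 bases before the start of *CCN2* and 220 and 128 bases before that of *ANKRD1*. At least 1 core is in 11.9% of the 35116 RefSeq promoter stretches of this length, at least 2 are in 0.940% and at least 3 in 0.0826%. *YAP1* holds 1 core, 1 of the 2 promoters of *AMOTL2* and of *AJUBA* holds 1, and both promoters of *WWTR1* and that of *LATS2* hold none. The letters TGANTCA, an AP-1 motif that reads the same on both strands, are in 6.57% of the stretches and in that of *ANKRD1*, 195 bases before the start. CTTTGA (or TCAAAG), the core of TCF/LEF motifs, is in 11.2% of the stretches and among the members only in that promoter of *AMOTL2* which also holds a TEAD core. No match overlapped one of another motif.

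Among the targets that encode secreted matrix proteins, *CCN1* (formerly CYR61, ENSG00000142871, chromosome 1, 86046444 to 86050272, plus strand) rose in HCT116 KO. The WT libraries held 277 and 247 (WT 4) and 624 and 661 (WT 6) normalized counts, and the KO libraries held 1188 and 1011 (KO 44) and 1893 and 1539 (KO 47). All KO libraries were above all WT libraries, while the WT clones were themselves apart. The log2 fold change was 1.74 (standard error 0.35, limma adjusted p = 0.011). It was no longer called without clone KO 47 (1.42, adjusted p = 0.057 in limma) or with each clone counted as 1 sample (adjusted p = 0.26), and it was 1.09 without clone WT 4. In SW480 *CCN1* was at 4622, 3283, 3404 and 4131 in WT, at 3473 and 3507 in KO 17 and at 6373 and 7033 in KO 21, so that only KO 21 was above the WT libraries (log2 fold change 0.34, standard error 0.24, adjusted p = 0.28). HT29 held 143, 138, 70.1 and 76.4 in WT and 113, 91.0, 99.6 and 84.3 in KO (log2 fold change −0.07, standard error 0.30, adjusted p = 0.92).

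*CCN2* (formerly CTGF, ENSG00000118523, chromosome 6, 132269316 to 132272512 on the minus strand of GRCh37) was called in no line. In HT29 it was at 47.0 and 43.6 in WT 11 but at 2.96 and 1.25 in WT 40, and at 21.1 and 10.8 in KO 28 but at 72.1 and 79.1 in KO 38. In SW480 the WT libraries held 1025, 1069.6, 1026 and 1368, KO 17 held 599 and 668, and KO 21 held 1605 and 1393. One KO clone of SW480 was thus below and the other above the WT libraries. HCT116 held 23.9, 21.3, 54.5 and 71.4 in WT and 82.5, 57.5, 71.7 and 43.8 in KO. The log2 fold changes in HT29, HCT116 and SW480 were 1.58, 0.71 and −0.20 (standard errors 1.12, 0.39 and 0.31), with limma adjusted p of 0.51, 0.25 and 0.63. Without clone WT 6 the change in HCT116 was called (1.42, adjusted p = 0.036 in limma). The exons of *CCN2* share 278 bases, or 11.9%, with *LINC01013* on the opposite strand.

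*ANKRD1* (ENSG00000148677, chromosome 10, 92671853 to 92680844, minus strand), a nuclear ankyrin repeat protein also known from heart muscle, was a transcript of SW480. There it was at 12782, 13775, 8764 and 12641 normalized counts in WT and at 3458, 3758, 4720.2 and 5780.3 in KO libraries. Every KO library was below every WT library, and the KO mean was 36.9% of the WT mean. The log2 fold change was −1.45 (standard error 0.18, limma adjusted p = 0.00012) and ran from −1.71 to −1.18 over 21 alternatives, called in each. The HT29 and HCT116 libraries held at most 9 reads of *ANKRD1*, so it was not tested within these lines. The 3 secreted or nuclear targets therefore did not move together in SW480, where *ANKRD1* fell and *CCN1* and *CCN2* were split between the KO clones.

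**Figure D2:**
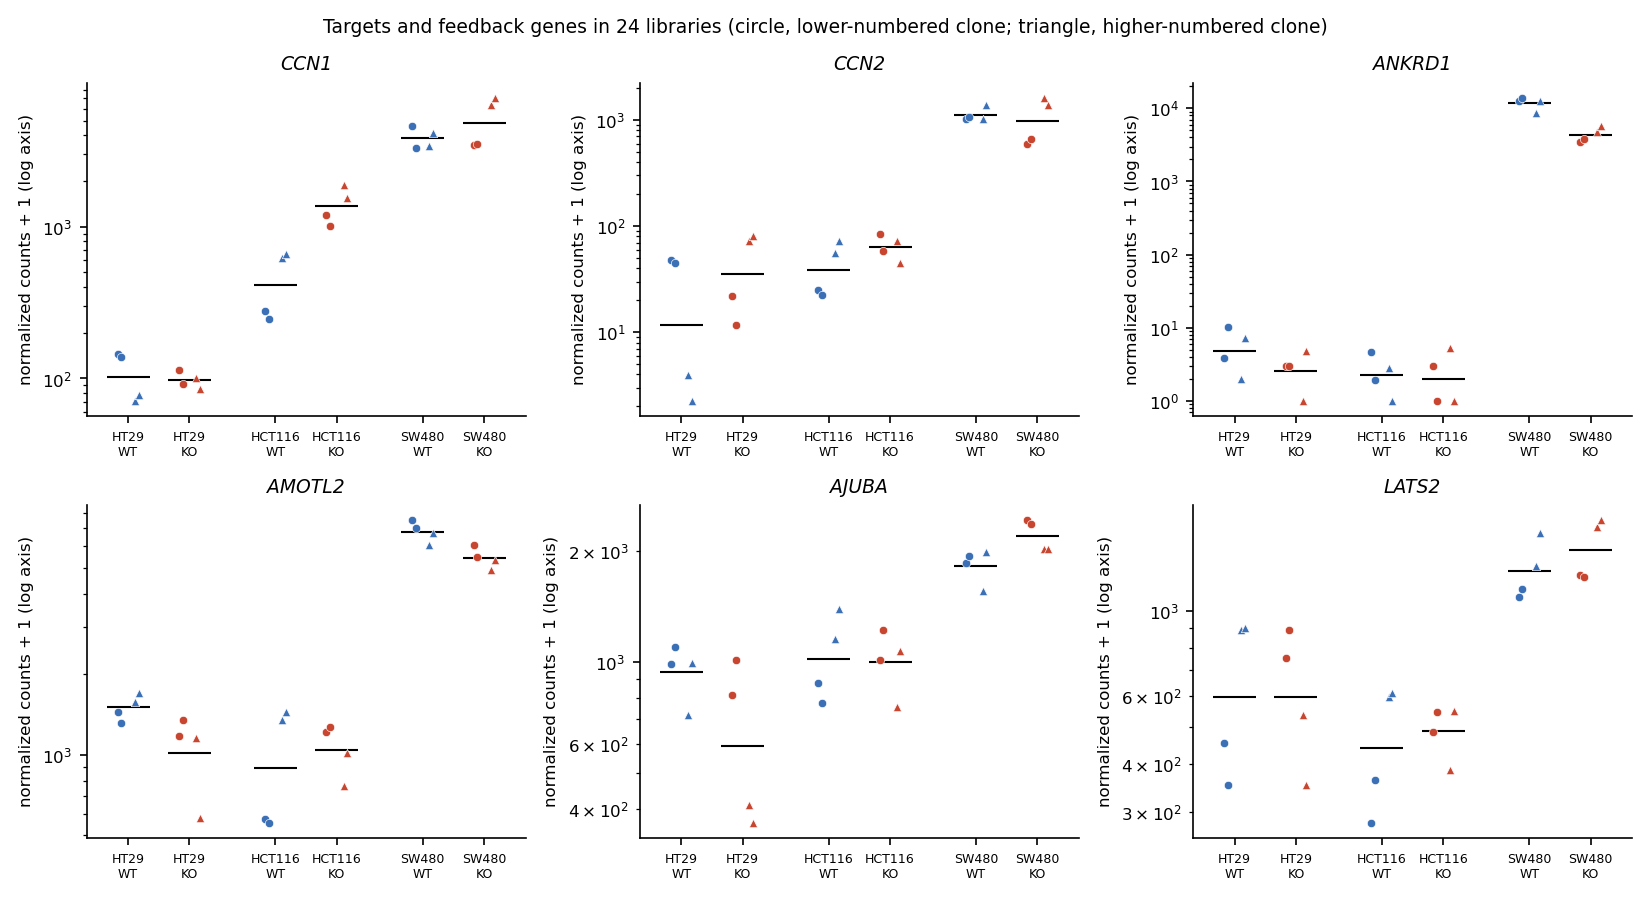
Normalized counts plus 1, on log axes, of *CCN1*, *CCN2*, *ANKRD1*, *AMOTL2*, *AJUBA* and *LATS2* in the 24 libraries. Blue is WT and red is KO, circles are the lower-numbered and triangles the higher-numbered clone, and lines are means of log values. *ANKRD1* was near 0 outside SW480, and the clones of a genotype were apart for *CCN2* in HT29 and SW480 KO and for *CCN1* in HCT116.

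*AMOTL2*, *AJUBA* and *LATS2* are targets of YAP/TAZ that feed back on the pathway. LATS2 is the kinase of YAP and TAZ, the angiomotin AMOTL2 binds them and keeps them out of the nucleus, and the LIM protein AJUBA restrains LATS kinases. None of the 3 was called between genotypes in any line. *AMOTL2* (ENSG00000114019, chromosome 3, 134074189 to 134094321, minus strand) was at 7505, 7047, 6051 and 6746 in SW480 WT and at 6052, 5470.0, 4894 and 5342 in SW480 KO, where 1 KO library just reached the WT range (log2 fold change −0.33, standard error 0.09, limma adjusted p = 0.0097). *AJUBA* (ENSG00000129474, chromosome 14, 23440386 to 23451760, minus strand) was at 1852, 1929, 1555 and 1979.9 in WT and at 2416, 2356, 2015 and 2023 in KO libraries of SW480, without overlap (log2 fold change 0.27, standard error 0.10, limma adjusted p = 0.040). *LATS2* (ENSG00000150457, chromosome 13, 21547175 to 21635725, minus strand) had a log2 fold change of 0.18 (standard error 0.15, adjusted p = 0.34 in limma) in the same line, with WT libraries at 1086 to 1593 and KO libraries at 1223 to 1717.

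In HCT116, *AMOTL2* was at 573 and 553 in WT 4 and at 1344 and 1448 in WT 6, on both sides of the KO libraries at 1209.5, 1262, 764 and 1011. In HT29 it was at 1313 to 1701 in WT and at 579.5 to 1344 in KO libraries. *AJUBA* in HT29 was at 718 to 1097 in WT, at 814 and 1012 in KO 28 and at 408 and 364 in KO 38. Only KO 38 was below the WT libraries, and without clone KO 28 the change was called (log2 fold change −1.28, adjusted p = 0.030 in limma). In HCT116 *AJUBA* lay at 771 to 1389 (WT) and 754 to 1219 (KO). *LATS2* lay at 352 to 901 (WT) and 353 to 891 (KO) in HT29, and at 279.8 to 610.2 (WT) and 385 to 548 (KO) in HCT116. The 6 log2 fold changes of the 3 genes in these lines lay between −0.66 and 0.23, with limma adjusted p of at least 0.33.

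**Figure D3:**
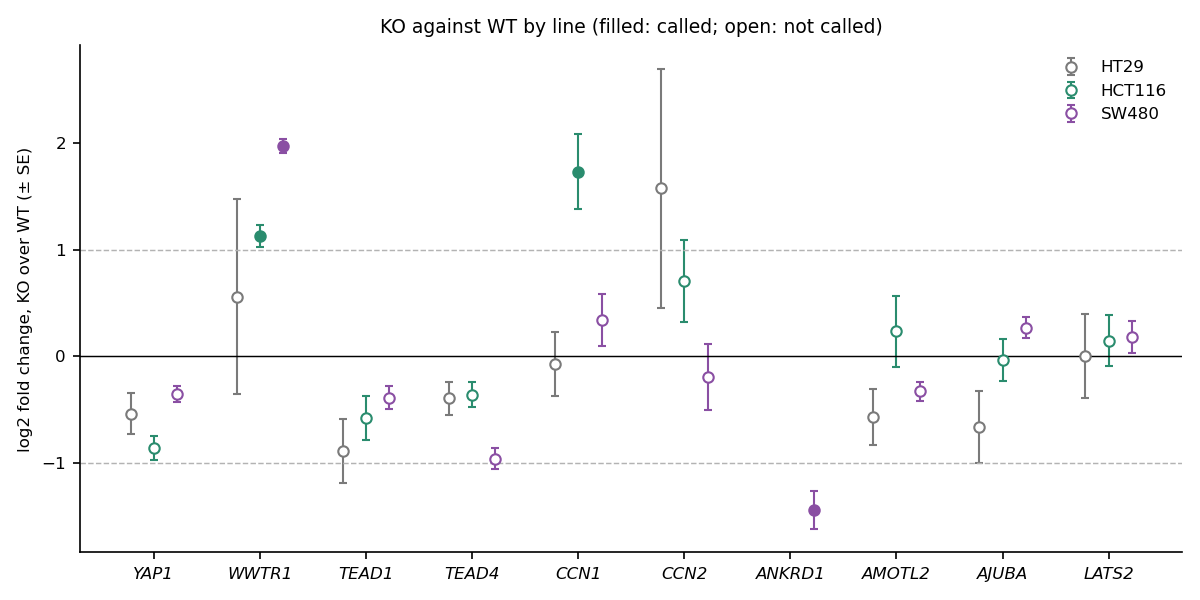
Log2 fold change of KO over WT with its standard error for each member and line. Filled points were called and open points were not, dashed lines mark an absolute log2 fold change of 1, and *ANKRD1* is shown for SW480, where it was tested. The 4 called points are *WWTR1* in HCT116 and SW480, *CCN1* in HCT116 and *ANKRD1* in SW480.

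Tests of the difference between lines bore on *CCN1*. Its KO effect was larger in HCT116 than in HT29 by 1.81 (standard error 0.45, limma adjusted p = 0.014), and it was lower in SW480 than in HCT116 by 1.40 on the log2 scale (difference −1.40, adjusted p = 0.040 in limma). Without clone WT 11 of HT29, WT 4 of HCT116 or KO 47 of HCT116, or with clones as samples, the first was 1.16 to 1.81 with adjusted p of at least 0.070. The second was not called under 19 of 46 alternatives, among them each SW480 library of WT 4, WT 5 and KO 17 and each HCT116 library of WT 4 and KO 47 left out, with adjusted p up to 0.40. Of 10 members, 1 was called in the difference between HCT116 and HT29, where 5.39% of all genes tested were called, 0 between SW480 and HT29 against 12.3% (2 at an unadjusted limma p under 0.05, and *WWTR1* in edgeR and in DESeq2), and 1 between SW480 and HCT116 against 10.0%. The *WWTR1* effects of HCT116 and SW480 differed by 0.84 (standard error 0.82, adjusted p = 0.59 in limma) in the fit over all 24 libraries, in which the HT29 clones set much of the spread. Fitted on these 2 lines alone, a setting chosen after the data had been seen, the same difference had an adjusted p of 2.8e-05, still under the fold threshold. These 3 differences share the libraries of each line.

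Among WT clones, every member called between SW480 and another line was higher in SW480. SW480 was called higher than HT29 for 6 of 10 members and higher than HCT116 for 7 of 10, and HCT116 was called higher than HT29 for 2 of 10. Of all genes tested, 40.1%, 40.2% and 37.5% were called in these comparisons, in either direction. In the same order, 4351, 3959 and 3493 of 17205 genes were called higher. The members were chosen with earlier results of these data known, so their counts are a description. No member was called lower in SW480, and the median log2 difference of the 10 members was 1.63 against HT29 and 1.46 against HCT116, where all genes had medians of 0.10 and 0.05. *ANKRD1* differed most, at 11990.3 ± 2209.7 normalized counts in SW480, 4.81 ± 3.61 in HT29 and 1.61 ± 1.57 in HCT116. Its log2 differences of 11.24 and 12.36 depend on the value added before the logarithm, since HCT116 WT libraries held 0 to 4 reads, and became 10.31 and 10.83 with 5 in place of 1. *CCN2* was at 1122 ± 165 in SW480, 42.8 ± 24.3 in HCT116 and 23.7 ± 25.0 in HT29, with log2 differences of SW480 of 4.85 (standard error 0.90) and 6.57 (standard error 0.90). HCT116 and HT29 did not differ beyond their spread for *CCN2* (log2 difference 1.72, limma adjusted p = 0.11), but they did without HT29 library WT 11A or WT 11B, at 2.39 and 2.36 (limma adjusted p = 0.024 and 0.033), and by 3.69 without clone WT 11.

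*CCN1* formed a graded series in WT clones, at 107 ± 38.9 in HT29, 452 ± 220.4 in HCT116 and 3860.2 ± 631 normalized counts in SW480. Each step was called, with log2 differences of 2.004 (standard error 0.34, adjusted p = 0.00015 in limma) and 3.22 (standard error 0.34, limma adjusted p = 1.8e-06). *WWTR1* rose in the same order, from 59.0 ± 60.8 in HT29 to 1282 ± 77.4 in HCT116 and 2798 ± 106 in SW480. HCT116 and SW480 exceeded HT29 by 5.36 and 6.49 on the log2 scale (standard error 0.78 for each). The difference of 1.13 between SW480 and HCT116 was not called in the shared fit (adjusted p = 0.22), although no library overlapped, and it was called from these 2 lines alone (adjusted p = 1.1e-07, a setting chosen after the data had been seen). *AMOTL2* was at 6837 ± 609.8 in SW480, against 1507 ± 168 in HT29 and 979.7 ± 483 in HCT116, with log2 differences of 2.18 and 2.94 (limma adjusted p = 1.1e-05 and 6.8e-07).

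The remaining members varied less between WT lines. *LATS2* was at 1281 ± 229 in SW480, 648 ± 288 in HT29 and 462 ± 166 in HCT116, and its log2 difference of 1.08 from HT29 fell under the fold threshold, at 0.83 to 0.97, in edgeR, in DESeq2 and without HT29 WT 11A, HT29 WT 11B or SW480 WT 5B. Without clone WT 11 of HT29 it was 0.50 (adjusted p = 0.13 in limma), and without clone WT 5 of SW480 0.89. *TEAD1* was higher in SW480 than in HCT116 by 1.39 and *YAP1* by 1.07 (limma adjusted p = 7.4e-05 and 3.6e-06). *YAP1* was at 7494 ± 434 in SW480, 4469.9 ± 904 in HT29 and 3570.4 ± 272 in HCT116. *TEAD4* and *AJUBA* were highest in SW480 with differences from 0.56 to 0.96, none of which passed the fold threshold, and HT29 and HCT116 did not differ beyond their spread for either (limma adjusted p = 0.67 and 0.58). *AJUBA* passed the threshold against HT29 without HT29 WT 11B or SW480 WT 5A (1.03 each), with scaling by library totals (1.03), and without clone WT 11 of HT29 (1.11) or WT 5 of SW480 (1.01). Against HCT116 it did so without clone WT 6 of HCT116 (1.15), and *TEAD1* did so against HT29 without clone WT 40 of HT29 (1.12).

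Per kilobase of exon, the order of the members differed between lines. In SW480 WT, *ANKRD1* led with 6699 ± 1234 normalized counts per kilobase, followed by *YAP1* (1187 ± 68.7), *AMOTL2* (1055 ± 94.1) and *CCN1* (1044 ± 171), of which *AMOTL2* and *CCN1* did not differ beyond their SD. *YAP1* was above *AMOTL2* in each of these 4 libraries. In HCT116 WT, *YAP1* (566 ± 43.1) and *TEAD4* (541 ± 70.9) led, *CCN2* (18.3 ± 10.4) was next to last and *ANKRD1* last. HT29 WT had the same genes at the top, *YAP1* with 708 ± 143 and *TEAD4* with 517 ± 66.7, and *CCN1* (28.9), *CCN2* (10.1 ± 10.7), *WWTR1* (7.06 ± 7.28) and *ANKRD1* (2.69 ± 2.02) at the bottom. HT29 thus expressed *YAP1* and TEADs with little *WWTR1*, *CCN1*, *CCN2* or *ANKRD1*.

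Clones of the same line and genotype were compared with a mean per clone, where the error came from rounds alone, so these counts are not comparable with those between genotypes. WT 40 differed from WT 11 of HT29 for 3 of 9 members, against 7.58% of all genes tested. *CCN2* was lower in WT 40 by 3.95 and *WWTR1* by 3.62 on the log2 scale (differences −3.95 and −3.62, limma adjusted p = 0.0018 and 0.00079), and *LATS2* was higher by 1.17 (adjusted p = 0.028). In WT 40, *CCN2* held 3 and 1 reads and *WWTR1* 10 and 5. The size of these differences therefore depends on the value added before the logarithm. Leaving out any of the 4 WT libraries or a library of KO 28 ended the *LATS2* call (adjusted p from 0.067 to 0.22). KO 38 differed from KO 28 of HT29 for 2 of 9, against 12.5%, with *CCN2* higher by 2.25 and *AJUBA* lower (difference −1.23, adjusted p = 0.017 and 0.010 in limma). The rounds of KO 38 were the least alike of all clones, with a chi-square of 221 per degree of freedom over genes against 4.64 to 40.55 in the other clones. Without library KO 38A, 5 members were called between these clones, without KO 28A 1 and without KO 28B 0.

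HCT116 WT 6 differed from WT 4 for 2 of 9 members against 1.44% of all genes, with *AMOTL2* higher by 1.31 and *CCN1* by 1.29 (limma adjusted p = 0.0015 and 0.0017). *CCN2*, higher by 1.43 with an adjusted p of 0.057, was called with the round as a block (adjusted p = 0.0052 in limma), which fitted HCT116, where the rounds paired the libraries. No member was called between KO 47 and KO 44 of HCT116 (0 of 9, against 3.28%, with 2 members at an unadjusted p under 0.05), nor between WT 5 and WT 4 of SW480 (0 of 10, against 1.97%, with 3). edgeR and DESeq2 called none in either pair. KO 21 and KO 17 of SW480 differed for 1 of 10, against 4.61%, which was *CCN2*, higher in KO 21 by 1.24 (adjusted p = 5.8e-06 in limma). *CCN1*, higher there by 0.94 (adjusted p = 0.0016 in limma), passed the fold threshold without library KO 21A (1.01).

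Further genes of the pathway were taken from lists, which were also chosen with earlier results of these data known. Of the Hippo kinases and regulators, 0 of 18 tested were called by limma in HT29 (0 at an unadjusted p under 0.05), 0 of 20 in HCT116 (5 at that p) and 3 of 20 in SW480. Of all genes tested, 2.30%, 5.06% and 17.5% were called in these lines, so that the list was near the share of all genes in SW480. In that line *NF2*, the upstream activator of LATS kinases, was at 1402 ± 126 in WT and 3394 ± 368 in KO (log2 fold change 1.27). *WWC1*, encoding the scaffold KIBRA, went from 4231 ± 259 to 1219 ± 49.3 (−1.79), and *WTIP*, an AJUBA relative, from 728 ± 131 to 207 ± 37.0 (−1.81). The list had median log2 fold changes of −0.17 for HT29, −0.10 for HCT116 and 0.14 for SW480.

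Other YAP/TAZ targets, listed apart from the members, were called higher in KO for 2 of 14 tested in HCT116 and 7 of 16 in SW480, and lower for 1 of 16 in SW480. Among all genes tested, 3.17% were called higher in HCT116, and 10.7% were called higher and 6.76% lower in SW480, so that the 1 lower gene was near the share of all genes. In HT29, 0 of 13 were called by limma, with 4 at an unadjusted p under 0.05, where 2.30% of all genes tested were called. This list was chosen with earlier results of these data known, so its counts describe it and are not an independent test. The list had medians of −0.72 for HT29, 0.12 for HCT116 and 0.59 for SW480. *NT5E*, which encodes the ectoenzyme CD73, was at 2102 ± 210.4 in WT and 11287 ± 286 in KO of HCT116 and at 896 ± 185 and 29133 ± 3642 in SW480 (log2 fold changes 2.43 and 5.04, limma adjusted p = 6.9e-08 and 3.5e-09). *AXL*, a receptor tyrosine kinase, rose from 1633 ± 614 to 4364 ± 1357 in HCT116 (1.44, adjusted p = 0.012). In SW480 the coagulation initiator *F3* rose from 249 ± 27.6 to 2033 ± 159 (3.02), and the transcription factor *FOXF2* fell from 1120.0 ± 219 to 40.5 ± 5.81 (−4.74).

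AP-1 factors occupy many enhancers together with TEADs. *FOSL1*, the AP-1 subunit FRA1, rose from 4129 ± 816 to 13736 ± 2612 in HCT116 and from 2855 ± 420.0 to 7315 ± 1954 in SW480 (log2 fold changes 1.74 and 1.33). *EGR1*, an immediate-early gene, fell from 865 ± 257 to 230.4 ± 142 in HCT116 and from 1646 ± 244 to 451 ± 29.1 in SW480 (−2.09 and −1.86), *FOSL2* fell in HCT116 (−1.38) and *FOS* in SW480 (−3.05). In all, 1 gene of the list rose and 3 fell in each of these lines, of 11 and 12 tested, and 1 of 10 rose in HT29, *JUNB*, from 1069.9 ± 30.5 to 2685 ± 514 (1.31). All genes tested were called higher and lower at 3.17% and 1.89% in HCT116 and at 10.7% and 6.76% in SW480, and higher at 1.90% in HT29, so that the 1 rise in SW480 was near the share of all genes. The list had medians of 0.31 for HT29, −0.05 for HCT116 and −0.13 for SW480. Of the targets of SRF, which with MRTF shares cytoskeletal targets with YAP/TAZ, 1 of 10 fell in HT29, against 0.402% of all genes tested. It was the actin crosslinker *FLNA* (from 22557 ± 7803 to 7134 ± 2251, −1.66). None of 10 was called in HCT116 by limma, against 5.06% of all genes tested, and 4 had an unadjusted p under 0.05. In SW480, 3 of 10 rose, against 10.7% of all genes tested, led by *FHL2* (from 1303 ± 39.5 to 6478 ± 245, 2.31) and the adhesion protein *VCL* (1.41). In the order of lines above, this list had medians of −0.26, 0.01 and 0.03.

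Markers of cell state moved in HT29, where 5 of 10 epithelial markers were called higher in KO, against 1.90% of all genes tested. Among them were *CEACAM5*, from 68.9 ± 69.7 to 2647 ± 1089.8, and *CDH17*, from 0.981 ± 1.40 to 234 ± 248. The KO libraries of HT29 ran from 18.2 to 475 for *CDH17*. With each clone counted as 1 sample, limma called 0 genes in HT29, so none of its marker calls remained. Summed, the epithelial markers gave 325985 to 466928 normalized counts in WT libraries of HT29, and 494205 to 785877 in its KO libraries. Ranges for HCT116 were 130839 to 160534 and 135517 to 193724, with *CDH1* higher in KO (1.17) and *KRT20* lower (77.8 ± 19.2 in WT, at most 1 read in KO). In SW480 they were 141185 to 196636 and 152879 to 176978, with 0 of 6 called by limma (1 at an unadjusted p under 0.05). Of 8 fibroblast markers, *LUM* alone was called in HT29, from 0 in all WT libraries to 82.5 to 1125 in KO libraries, and *COL1A2* alone in SW480, from 81.7 ± 37.7 to at most 1 read, while *DCN* was at 0 to 13 reads throughout. *VWF* (from 20.2 ± 8.69 to 161 ± 54.5) and *CD14* (from 37.4 ± 6.92 to 172 ± 28.4) rose in SW480 KO, while *PTPRC*, *CDH5* and *TYROBP* stayed at or near 0. The summed fibroblast markers were at 14.2 to 26.9 (WT) and 109 to 1212 (KO) in HT29, 289 to 444 and 329 to 410.0 in HCT116, and 220.2 to 567 and 246 to 299 in SW480. The 4 endothelial markers matched summed to 0.960 to 2.96 and 9.08 to 36.2 in HT29, 6.42 to 21.9 and 5.65 to 48.2 in HCT116, and 11.6 to 32.3 and 118 to 234 in SW480. The 6 leukocyte markers summed to 21.3 to 328 and 91.1 to 188, 2.78 to 14.3 and 2.83 to 20.3, and 50.5 to 67.7 and 158 to 221 in the same order. Their part in the changes of the members was not tested.

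Over the 24 libraries, with the mean of each line removed, the pair of members most alike was *YAP1* and *TEAD1* (Pearson r = 0.75) and the least alike *YAP1* and *CCN1* (r = −0.61). Among 11762 genes, the patterns most like that of *CCN1* were *ICA1* (r = 0.87), *SLC47A1* (0.86) and *DDAH1* (0.84). For *CCN2* they were *COBL* (0.93), *TPMT* (0.91) and *TBXAS1* (0.91), and for *ANKRD1* they were *PHB2* (0.86), *KAT8* (0.83) and *PIGC* (0.80). Outside SW480 the libraries held 0 to 9 reads of *ANKRD1*, so its values there are mostly counting noise and its ranking is uncertain. These libraries come from 12 clones and share genotypes and rounds, so the values describe these clones.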

How the data were processed

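The 24 libraries were prepared by a sequencing service with a TruSeq RNA kit that does not mark strand. Per the labels, reads were aligned with STAR 2.7.5b to GRCh37 and counted per gene with featureCounts 2.0.1, the annotation release not being given in the sources used here. The deposited values are signal, in which the count of each gene was scaled by a size factor of its library. Tables per line with the authors' means, log2 fold changes and p-values were not used. The value of 1 read was taken from the spacing of low values, and 100.0% of values came out as whole reads (tolerance 0.001 reads). Recovered reads ran from 22297049 to 29068378 per library, and 3 reads were taken as the floor, which covers counting error only. Lengths are the union of exons in the GENCODE annotation lifted to GRCh37.

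Because values are signal, limma 3.58.1 (trend, robust) was run on log2 of the value plus 1. Genotype was compared within each line, WT lines in 1 fit of 12 libraries, differences of effects over 24, and clones with a mean each. The design had no term for the round, and the comparisons of genotypes and lines had none for the clone. The alternatives were edgeR 4.0.16 and DESeq2 1.42.0 on recovered reads, scaling by library totals, a pseudocount of 5, no filter or a filter in every library, the round as a block, clones as samples or as a random effect, and each library and clone left out. Fitting only the 2 lines compared was added after the data had been seen. The test was checked on simulated data. The simulated libraries were drawn independently, with no added spread between clones, so that check could not show how differences between clones affect the calls.

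Rounds were taken to pair the libraries where the differences between rounds A and B correlated over 0.1 for every pair of clones, which held in HCT116 (r from 0.18 to 0.37, 6 of 6 pairs) and not in HT29 (2 of 6) or SW480 (1 of 6). No clone's rounds differed as little as sampling noise, so no library was taken for a duplicate. The members and lists were chosen with earlier results of these data known. All members were named, and from each list the 2 called genes with the largest rise and fall per line among those with a mean of at least 100. *VGLL2*, *KRT20*, *COL1A1*, *COL1A2* and *VWF*, *CD14* in HT29 and markers at or near 0 were named after their values were seen. On recovered reads, edgeR called 301 (HT29), 820 (HCT116) and 2871 (SW480) genes between genotypes.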

Additional observations from a re-analysis of the deposited data

Results flagged for a closer look

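*CCN2* in SW480 WT 5B, at 1368.2 normalized counts, stood apart from the other 3 WT libraries of SW480, which lay between 1025 and 1069.6. This was the only one of 60 groups of 4 libraries with such a gap, and chance gives about 1 in 20.

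The KO effect on *TEAD4* was more negative in SW480 than in HT29 (difference −0.564 on the log2 scale, limma adjusted p = 0.027) and than in HCT116 (−0.601, limma adjusted p = 0.021). For *TEAD4* both differences lost an adjusted p under 0.05 with clones as samples (0.32 each) and without clone WT 4 or KO 21 of SW480 (0.14 to 0.18).

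The KO effect on *CCN1* was larger in HCT116 than in HT29 (difference 1.81, limma adjusted p = 0.014) and lower in SW480 than in HCT116 (difference −1.397, limma adjusted p = 0.040).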

How the results depend on the processing

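Of 3604 values of single members under alternative settings, 3511 kept their side of the thresholds, 43 lost a call, 49 gained one and 1 was called in the other direction, while 101 that were called under neither setting changed sign. The 1 reversed value was the difference of KO effects on *WWTR1* between HCT116 and HT29, which was 0.57 and not called with all libraries and −1.24 without clone WT 11 of HT29.

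Counts of called members that moved by over 1.5 times are given first, and where no value or construction shows the cause, the cause was not tested. In KO against WT, HT29 had 1 without clone KO 28 (0 with all), and HCT116 had 1 without clone KO 47 and 1 with clone means as samples (2 with all). HCT116 WT against HT29 WT had 1 with a value of at least 10 in every library and 4 without WT 11 (2 with all), and SW480 WT against HT29 WT had 3 with that filter (6 with all), fewer genes being tested. The difference between HCT116 and HT29 (1 with all) was 0 with clone means, without WT 4 of HCT116 and without KO 47, and 2 without WT 11, without WT 40, without KO 28 and without WT 6. The difference between SW480 and HT29 (0 with all) was 1 in edgeR, in DESeq2 and without clone WT 11, WT 40 or KO 28 of HT29, and 0 to 1 with 1 library left out. The difference between SW480 and HCT116 (1 with all) was 0 in edgeR, with no filter, with clone means, with clone as a random effect and without clone WT 4 or KO 47 of HCT116 or WT 4, WT 5 or KO 17 of SW480, 2 with a pseudocount of 5 and without WT 6, and 0 to 1 with 1 library left out. The filter in every library left 1 call for WT 40 against WT 11 (3 with all) and 1 for KO 38 against KO 28 of HT29 (2 with all), where leaving out 1 library gave 0 to 5. KO 21 against KO 17 of SW480 gave 1 to 2 with 1 library left out (1 with all).

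Smaller moves with 1 library left out were 2 to 3 in KO against WT of SW480 (3 without WT 5A or KO 17B), 2 to 3 in HCT116 WT against HT29 WT, 4 to 6 in SW480 WT against HT29 WT (4 without SW480 WT 5B), 6 to 7 in SW480 WT against HCT116 WT, 2 to 3 between WT clones of HT29 and 2 to 3 between WT clones of HCT116.

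Over all genes, DESeq2 called 784 in KO against WT of HT29, against 343 in limma. With clone as a random effect limma called 121 genes there, and with clones as samples 0 of 14921. With clones as samples it called 358 in HCT116 and 2400 in SW480. With the replicate block, the 3 counts of KO against WT were 0, 2 and 2, as without it, and among all member calls it changed that of *CCN2* between the WT clones of HCT116 and no other. The fit on only the 2 lines compared, chosen after seeing the data, moved no count by over 1.5 times. At 0 to 9 reads, depth limits *ANKRD1* outside SW480.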
